A study of Procambarus clarkii with 12 samples.

Results

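Of 176325 gene clusters listed for the hepatopancreas of the red swamp crayfish (*Procambarus clarkii*), 62 had their highest levels in all 3 libraries from animals held at 10 mg/L cadmium. The members were chosen from measured values. Levels are in CPM, the estimated read count of a cluster divided by the sum of its library and multiplied by 1000000. A member had a mean of 5 to under 1000 CPM over 12 libraries, its lowest 10 mg/L library lay above the highest of the other 9, and its mean log2(CPM + 1) at 10 mg/L exceeded that of the other 9 by at least 1. Clusters whose controls all lay to one side of the cadmium libraries were to be left out, and 0 were. The level at 10 mg/L against the other groups is therefore given as a description, with no test.

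The 4 groups of 3 libraries each were from male crayfish held for 72 h without cadmium (controls), or at 2, 5 or 10 mg/L cadmium. All libraries were made from total RNA of flash-frozen hepatopancreas. Whether each library holds 1 animal or a pool is not stated in the labels, so the spread between libraries may be that of animals or of pools, or technical. No cluster is paired with a gene name in the files, and of their identifiers 0 occur in the RefSeq genes of assembly FALCON_Pclarkii_2.0. Therefore no function is given for any member, and the tissue could not be checked against its markers. Only 2 identifiers are printed, and other members are called by their rank in mean CPM at 10 mg/L (level rank) or by their rank in the gap, which is the log2(CPM + 1) of the lowest 10 mg/L library minus that of the highest other library (gap rank).

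The hepatopancreas of decapod crustaceans secretes digestive enzymes, absorbs nutrients, stores lipid and is a main organ in which metals are detoxified. Cadmium is a non-essential metal that binds thiol groups. In animals it is known to induce metallothioneins, small cysteine-rich proteins that bind metal, along with heat shock proteins and enzymes of glutathione metabolism, and to cause oxidative stress. Which members, if any, encode such proteins is not known from the files. In libraries of a whole organ, a change in the number of cells of a type and a change in RNA per cell cannot be told apart.

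Totals per library ran from 15835744 to 21653867 estimated counts. The libraries at 10 mg/L held 16083833, 16339501 and 16880989, fewer than every control and every 5 mg/L library. Clusters with at least 1 count numbered 97023, 101581 and 83894 in 10 mg/L replicates 1, 2 and 3, and replicate 3 had the fewest of the 12 libraries. That replicate also stood apart in the members, and its label could not be checked against anything else in the files. Results that rest on it are given with and without it.

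The choice narrowed in steps. The mean range held 12004 clusters, and in 143 of these (1.19% of the clusters in range) all 3 libraries at 10 mg/L lay above the other 9. In 280 clusters all 3 lay below. A log2 difference of at least 1 left 62 members, 0.516% of the clusters in range. The same rule turned downward gave 153 clusters lowest at 10 mg/L, and applied to other doses it gave 113 clusters highest at 2 mg/L and 32 highest at 5 mg/L. The smallest log2 difference of a member was 1.004 and the largest just outside was 0.992. The lowest mean of a member was 5.18 CPM, and the highest just below the range was 4.96 CPM. The member with the smallest gap had 16.71 CPM in its lowest 10 mg/L library and 16.67 CPM in its highest other library. Just outside lay a cluster with 19.87 and 19.96 CPM in the same order.

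Members were of low to moderate abundance. Their means over 12 libraries ran from 5.18 to 146.7 CPM with a median of 9.13 CPM, against a median of 12.8 CPM for all clusters in range. The ratio of the 10 mg/L mean to the mean of the other 9 libraries had a median of 5.87, with the member at 0 in all 9 set at a floor of 3 counts over those libraries. It was over 10 in 25 members and under 3 in 19. With the mean of 10 mg/L replicates 1 and 2 alone the median ratio was 6.87, over 10 in 26 members and under 3 in 19. The members together took 0.433%, 0.411% and 0.159% of the counts in 10 mg/L replicates 1, 2 and 3. In the other 9 libraries they took 0.0518% to 0.0756%. Without the 5 members of highest level, their summed CPM was 2446, 2813 and 1102 in the same 3 libraries, and 291.6 to 429.0 in the other 9.

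**Figure D1:**
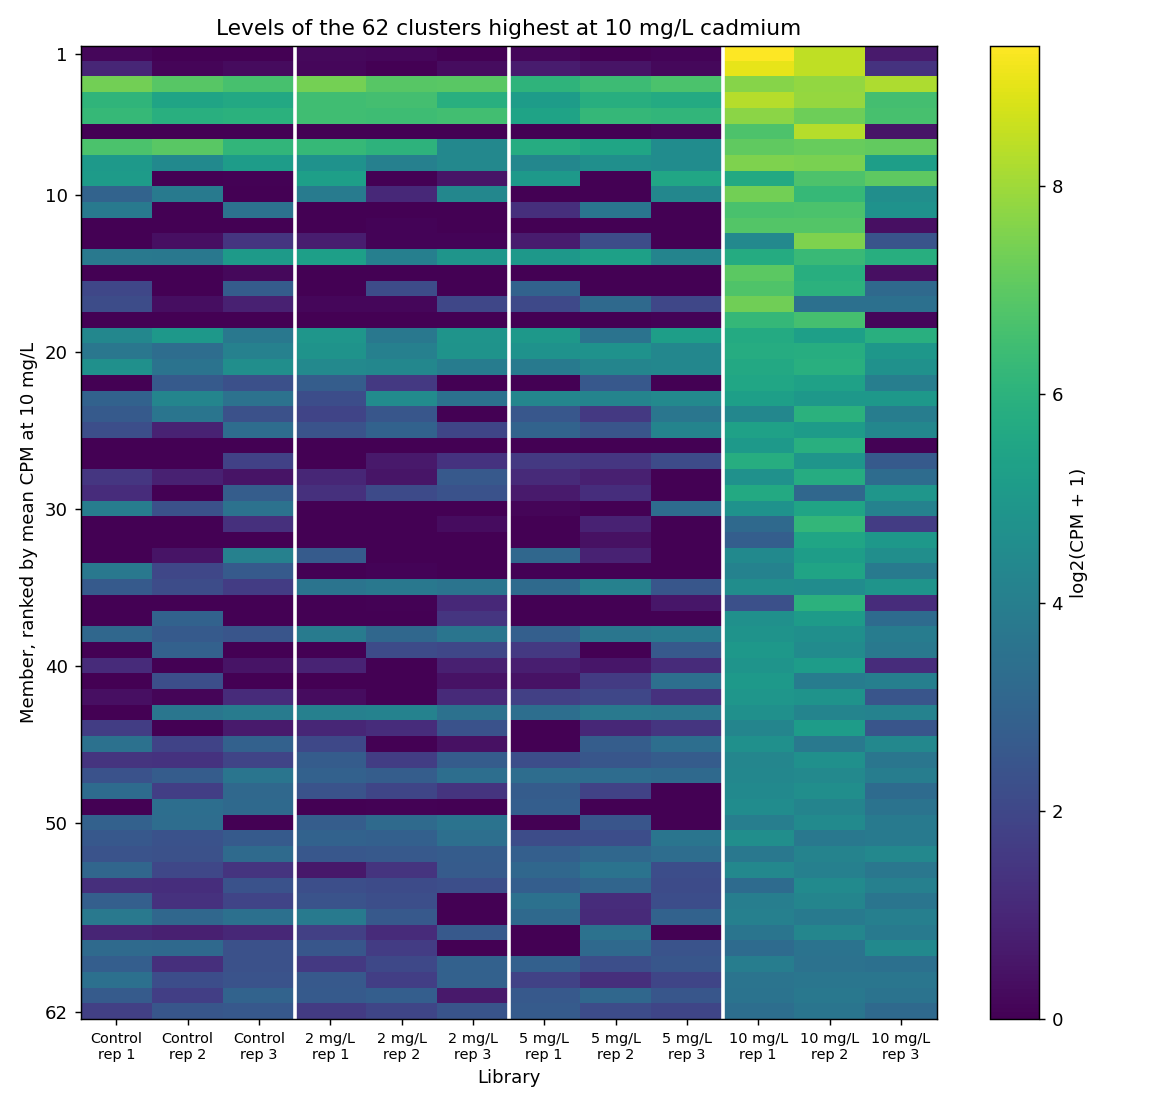
Each row is 1 of the 62 members, ranked by mean CPM at 10 mg/L, each column is 1 library, and the colour gives log2(CPM + 1). The 10 mg/L columns are the brightest in every row, several rows are dark in replicate 3 as well as in the other groups, and the other 9 columns show no step common to all members from controls to 2 and 5 mg/L.

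Members of the highest level were of 2 kinds, those almost silent in the other groups and those abundant everywhere. Cluster-27942.66078, the member of the highest mean level, had 649.0 and 346.4 CPM in 10 mg/L replicates 1 and 2 and 0.581 CPM in replicate 3. It had 0.111, 0 and 0 CPM in the controls, 0.147, 0.118 and 0 CPM at 2 mg/L, and 0.129, 0 and 0.0731 CPM at 5 mg/L. Replicate 3 lay far below its own group. It held 9.81 estimated counts, with an exact Poisson 95% interval of 0.284 to 1.09 CPM, and 2 mg/L replicate 1, the highest of the other 9, held 2.32 counts, with an interval of 0.0153 to 0.456 CPM. The intervals of these 2 libraries overlap. These intervals cover counting error only, since reads without molecular identifiers are not independent molecules.

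The member of level rank 2 had the same pattern, with 511.8 and 344.9 CPM in 10 mg/L replicates 1 and 2 and 1.60 CPM in replicate 3. Its other libraries ran from 0 to 0.992 CPM. Level rank 3 differed from both. At 10 mg/L it had 200.2, 226.5 and 289.9 CPM. The controls had 161.6, 120.5 and 98.2 CPM, and the lower doses had 165.9, 120.9 and 122.8 CPM at 2 mg/L, and 67.3, 83.0 and 103.2 CPM at 5 mg/L. Here the mean at 10 mg/L was 238.9 ± 46.1 CPM (SD, n = 3), and replicate 3 was the highest. The counting intervals were 193 to 207 CPM for the lowest 10 mg/L library and 160 to 172 CPM for the highest other library. They did not overlap, but they leave out the spread between libraries. Level ranks 4 and 5 were also abundant in every group, with 60.3 and 71.8 CPM in the mean of the other 9 libraries. Level rank 4 had 317.8, 229.4 and 93.4 CPM at 10 mg/L, and 2 mg/L replicate 2 reached 91.9 CPM. Level rank 5 had 209.5, 155.0 and 98.2 CPM at 10 mg/L, and 2 mg/L replicate 3 reached 91.5 CPM. In both, replicate 3 was the lowest of its group.

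**Figure D2:**
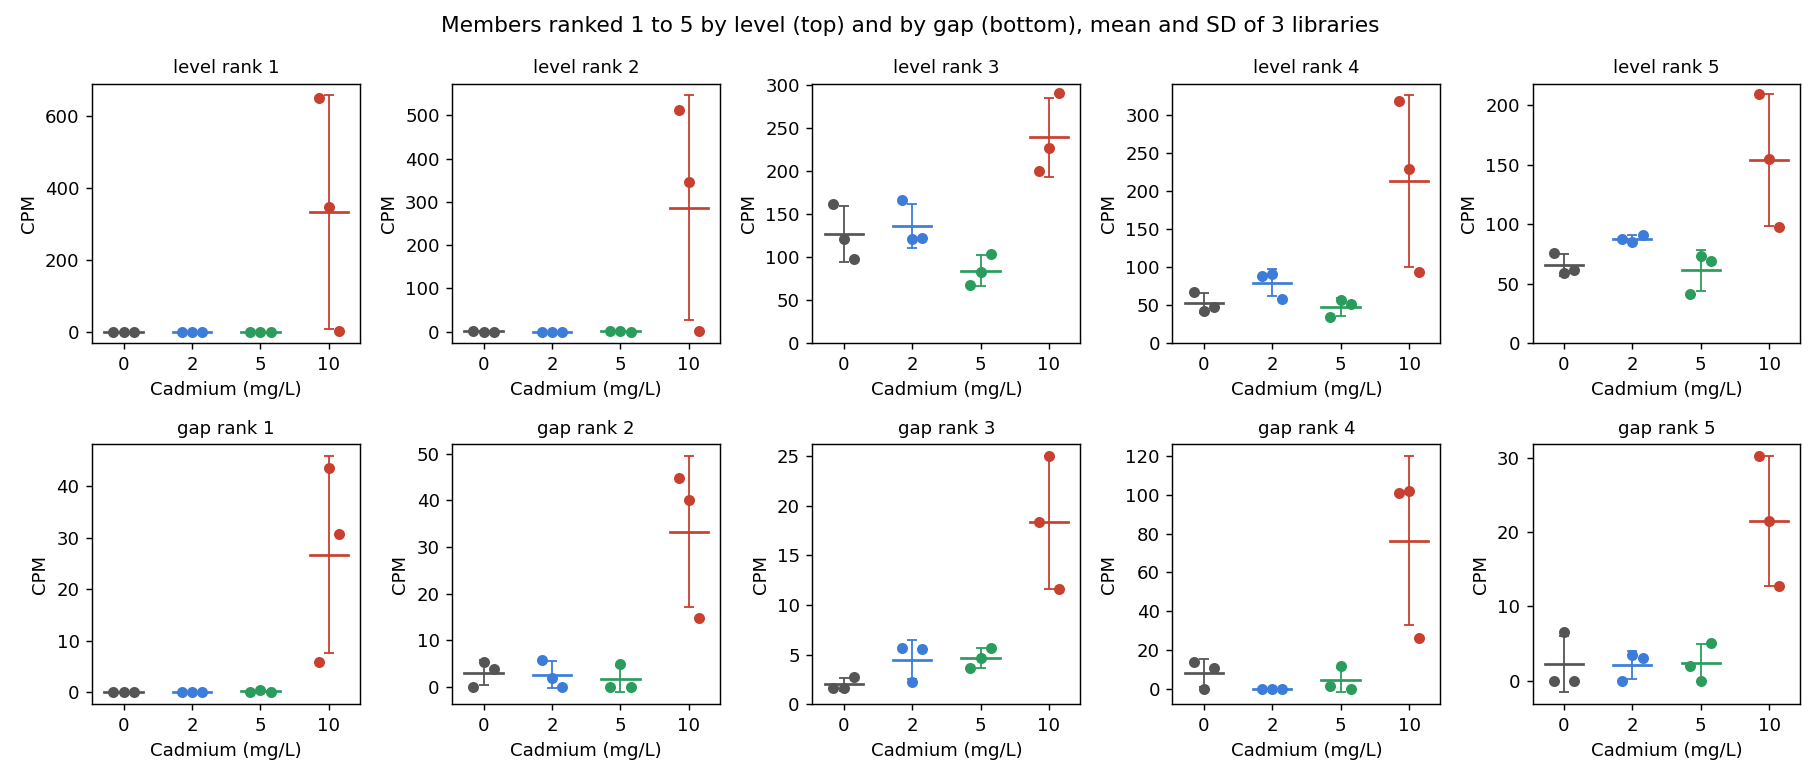
CPM against cadmium concentration (mg/L) for the 5 members of highest mean level at 10 mg/L (top row) and the 5 of largest gap (bottom row), with points for libraries and bars for the mean ± SD of 3 libraries. Level ranks 1 and 2 are high in 2 of the 3 libraries at 10 mg/L and near 0 elsewhere, while gap rank 1 is near 0 in all other groups with every 10 mg/L library above.

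Members with the widest gap were less abundant. Cluster-27942.72059, the first by gap, had 5.93, 43.6 and 30.8 CPM at 10 mg/L. It had 0 counts in 8 of the other 9 libraries and 0.353 CPM in 5 mg/L replicate 2, from 7.65 estimated counts. All 3 libraries at 10 mg/L lay far above the rest, and in this member replicate 1 was the low one. A count of 0 in a control allows up to 0.142 to 0.154 CPM at a floor of 3 counts per library. Gap rank 2 had 44.9, 40.1 and 14.8 CPM at 10 mg/L and at most 5.70 CPM elsewhere, and 4 of its other 9 libraries had 0 counts. Gap rank 3 was detected in every library, with 18.3, 25.0 and 11.6 CPM at 10 mg/L. It had 2.00 ± 0.64 CPM in the controls, 4.47 ± 1.96 CPM at 2 mg/L and 4.65 ± 1.02 CPM at 5 mg/L (SD, n = 3 each). Gap rank 4 had 101.1, 101.9 and 26.1 CPM at 10 mg/L, 0 counts in all 3 libraries at 2 mg/L, and 13.5, 0 and 10.4 CPM in the controls. Gap rank 5 had 30.2, 21.5 and 12.8 CPM at 10 mg/L and at most 6.56 CPM elsewhere.

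Gaps were mostly narrow. The median gap was 0.25 on the log2(CPM + 1) scale and the largest 2.36. It was at least 1 in 2 members, at least 0.5 in 8 and under 0.1 in 12. The 95% counting intervals of the lowest 10 mg/L library and the highest other library overlapped in 44 of the 62 members and stood apart in 18. The rule already sets the order of these 2 libraries, and the matching share of clusters in range was not computed. Nothing about the members is therefore read from the 18. In 6 members the lowest 10 mg/L library held under 10 estimated counts, and in all 6 the intervals overlapped. The most extreme was level rank 26, whose replicate 3 held 0.79 estimated counts against 0 in all 9 other libraries, so that less than 1 read placed it among the members.

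The 3 libraries at 10 mg/L did not carry the members to the same degree. Replicate 3 was the lowest of its group in 43 members, or 69.4%, while it was the lowest in 46.2% of all clusters in range. Replicate 1 was the lowest in 11 members and replicate 2 in 8. The level in replicate 3 had a median of 0.538 times the mean of replicates 1 and 2. It was under 0.1 times that mean in 12 members, from 0.1 to under 0.5 times in 17, from 0.5 to 1.5 times in 31 and above 1.5 times in 2. On the log2(CPM + 1) scale replicate 3 minus the mean of replicates 1 and 2 had a median of -0.87 in the members and -0.34 in all clusters in range. Replicates 1 and 2 were within 2-fold of each other in 47 members, but all 3 libraries were within 2-fold in 23. Across the 62 members, the log2(CPM + 1) of replicates 1 and 2 correlated with r = 0.68. For replicate 3 with replicates 1 and 2, r was 0.07 and -0.05. These are descriptions across members of libraries that the choice used.

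**Figure D3:**
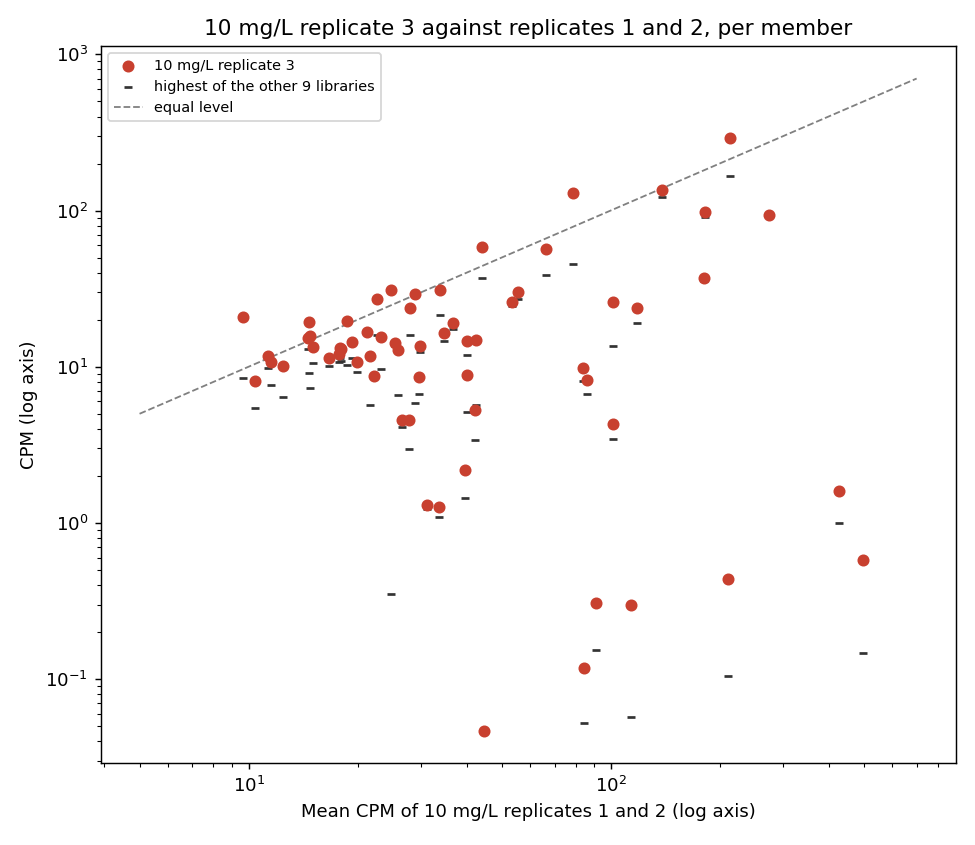
Each red point is the CPM of a member in 10 mg/L replicate 3 (log axis) against its mean CPM in 10 mg/L replicates 1 and 2 (log axis). Black dashes give the highest of the other 9 libraries (the member at 0 in all 9 has none), and the broken line marks equal levels. Most members lie below the line, 12 of them under 0.1 times the level of replicates 1 and 2, and many sit close to their dash.

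Single members show the range. Level rank 7 had nearly equal levels in its 3 libraries, with 133.0, 144.2 and 134.6 CPM at 10 mg/L and at most 122.4 CPM elsewhere. The highest ratio of replicate 3 to the other replicates was 2.15, in level rank 58, with 8.59, 10.70 and 20.73 CPM. Replicates 1 and 2 also parted in single members: level rank 17 had 157.9 CPM in replicate 1 and 9.83 and 9.80 CPM in replicates 2 and 3, and level rank 36 had 63.4 CPM in replicate 2 and 3.85 and 1.26 CPM in replicates 1 and 3.

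Next, 1 library at 10 mg/L was left out, the rule was applied to the 11 others, and the left-out library was read. The choice did not use the left-out library, but it did use the other 9 against which that library was read. Clusters chosen to be lower in those 9 may be easier to top, so the shares are in part set by the choice. Without replicate 3, 1099 clusters met the rule, among them 57 of the members. Replicate 3 lay above all 9 other libraries in 63 of these 1099, or 5.73%, where it did so in 7.01% of all 12175 clusters in range. The share among clusters high in replicates 1 and 2 was therefore no higher than in clusters at large. Its level was below the median of the other 9 in 710 of the 1099, or 64.6%, against 62.3% of all clusters in range. On the log2(CPM + 1) scale these clusters exceeded the mean of the other 9 by a median of 2.27 in replicates 1 and 2. In replicate 3 the median was -0.28, and -0.22 over all clusters in range.

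The other libraries at 10 mg/L gave a different result. Without replicate 2, 108 clusters met the rule, and replicate 2 lay above the other 9 in 56 of them, 51.9% against 17.3% of all clusters in range. Without replicate 1, 180 clusters met the rule, and replicate 1 lay above the other 9 in 53 of them, 29.4% against 21.0%. Leaving out 5 mg/L replicate 2 gave 132 members, and leaving out any 1 of the remaining 8 libraries gave 66 to 82. Read the same way, clusters chosen on a pair of 2 mg/L libraries had the left-out library on top in 45.3% to 51.8% of cases, where the shares over all clusters in range were 7.997% to 13.95%. For 5 mg/L the shares were 29.6% to 35.1% against 4.54% to 9.34%. At those doses the left-out library was on top more often than in clusters at large for each of the 3 replicates. Here too the choice used the 9 libraries compared, and its part in these shares was not tested. No test was made of the difference between doses. Clusters are not independent of each other, and the part that depth or the number of clusters detected in replicate 3 has in these shares was not tested.

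**Figure D4:**
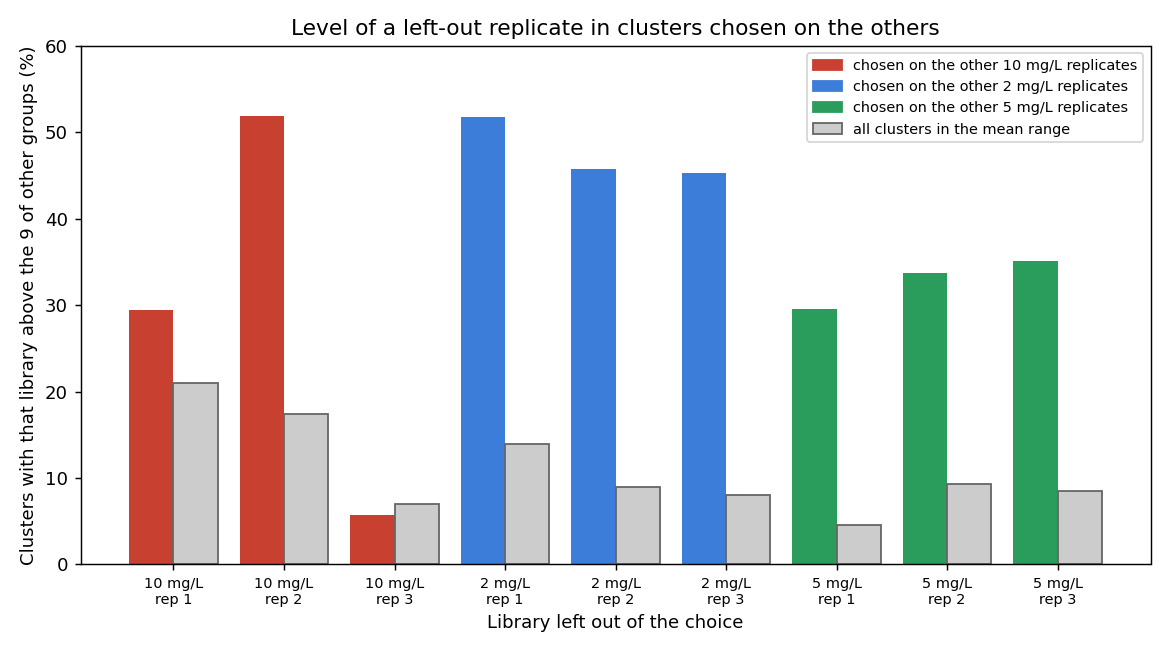
Bars give the percentage of clusters in which the library named below lies above all 9 libraries of the other groups. Coloured bars are clusters chosen by the rule without that library, and grey bars are all clusters in the mean range. The coloured bar stands above the grey one for 8 of the 9 libraries, and for 10 mg/L replicate 3 it is 5.73% against 7.01%.

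Whether the members already moved at the lower doses was asked by comparing controls, 2 mg/L and 5 mg/L with each other. The rule bears on these groups through the mean over 12 libraries, the log2 difference from 10 mg/L and the upper limit set by the lowest 10 mg/L library. Its condition on the controls removed 0 clusters. The group with the highest mean of the 3 was counted as the controls in 22 members, 2 mg/L in 15 and 5 mg/L in 25. The 22 include level rank 26, which was at 0 in all 3 groups and so had no highest group. Ties were counted under the first group, also over clusters in range. The 3 counts are 35.5%, 24.2% and 40.3% of members, beside 28.1%, 40.5% and 31.4% of all clusters in range. Means rose from controls over 2 to 5 mg/L in 12 members, 19.4% beside 17.1% of clusters in range, and fell in the same order in 8, 12.9% beside 14.4%. A graded rise with dose was thus found at a share near that of clusters at large.

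In edgeR's quasi-likelihood test over all 57151 clusters that passed the filter on low counts, 57 of the 62 members were tested. The other 5, of level ranks 6, 12, 15, 18 and 26, had too few counts in replicate 3 to pass. Between 5 and 2 mg/L, 0 members passed an adjusted p of 0.05 by edgeR, where 0.0105% of all clusters were called. An unadjusted p under 0.05 was reached by 2 members, both higher at 5 mg/L, that is by 3.51% of those tested beside 5.84% of all clusters. DESeq2 called 3 of the 57 members, 2 of them higher, beside 2.01% of all clusters. At 2 mg/L against the controls, 0 members passed by edgeR (0.00875% of all clusters). An unadjusted edgeR p under 0.05 was reached by 8 (4 higher, 4 lower), 14.04% of those tested beside 6.5% of all clusters. DESeq2 called 4 of the 57 members, 1 of them higher, beside 2.27% of all clusters. At 5 mg/L against the controls, 0 passed by edgeR, as did 0 of all clusters. An unadjusted edgeR p under 0.05 was reached by 7 (3 higher, 4 lower), or 12.28% beside 5.51% of all clusters. DESeq2 called 2 of the 57 members, 0 of them higher, beside 1.76%. Limma-voom called 0 members in all 3 comparisons. The last 2 comparisons share the control libraries, so their counts are not independent.

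The median log2 fold change of the 57 members was 0.19 for 5 against 2 mg/L, where all clusters tested had 0.08, and -0.17 for 2 mg/L against the controls, where all had -0.02. For 5 mg/L against the controls it was -0.04 beside 0.04, and it turned to 0.09 when library size alone was used for scaling. The spread between replicates in the members' median log2(CPM + 1) was 0.364 when pooled over all groups, 10 mg/L included. None of these comparisons sets a group against 10 mg/L, but the fit drew its spread from all 12 libraries. At 10 mg/L the members' median was 26.4, 34.97 and 13.5 CPM in replicates 1, 2 and 3. In the other groups it lay between 2.197 CPM (2 mg/L replicate 2) and 4.003 CPM (control replicate 3). The spread within the compared groups alone was not computed, so whether the median fold changes exceed it was not tested. A few members did part the lower groups. Level rank 34 had 12.5, 2.97 and 5.24 CPM in the controls, 0 to 0.0627 CPM at 2 mg/L and 0 to 0.0494 CPM at 5 mg/L, and then 16.6, 42.9 and 13.6 CPM at 10 mg/L. Its controls did not overlap with the 2 or 5 mg/L libraries, yet it did not pass the edgeR test (log2 fold change -8.01 with standard error 1.28 and adjusted p = 0.344 at 2 mg/L, and -8.21 with standard error 1.28 and adjusted p = 0.279 at 5 mg/L). Level rank 35 went the other way, with 5.29, 3.55 and 2.15 CPM in the controls, 10.99, 12.2 and 11.2 CPM at 2 mg/L, 8.44, 16.02 and 4.68 CPM at 5 mg/L and 22.6, 22.5 and 27.3 CPM at 10 mg/L. Its log2 fold change at 2 mg/L was 1.60 with standard error 0.49 (edgeR adjusted p = 0.762). Level rank 30 had the smallest p between 5 and 2 mg/L. It had 0 counts in all 3 libraries at 2 mg/L and 0.102, 0 and 8.88 CPM at 5 mg/L (edgeR adjusted p = 0.822), so a single 5 mg/L library set that difference.

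For comparisons that the choice used, the counts are given without reading anything from them. By edgeR 0 members were called at 10 mg/L against the controls, where 0.007% of all clusters were called, 0 against 2 mg/L (0.0122%) and 0 against 5 mg/L (0.0105%). Unadjusted p was under 0.05 for 29, 38 and 29 members, beside 11.4%, 10.9% and 8.31% of all clusters. DESeq2 called 22, 24 and 16 members beside 5.67%, 5.13% and 3.27% of all clusters, and limma-voom called 0 in each. Without 10 mg/L replicate 3, edgeR called 5, 4 and 5 of 62 members, beside 247, 159 and 199 of 69180 clusters (0.357%, 0.23% and 0.288%).

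Members varied more between libraries of a group than other clusters did, outside 10 mg/L. The median coefficient of variation of members was 68.4% in the controls, 81.3% at 2 mg/L and 72.3% at 5 mg/L. For all clusters in range it was 34.5%, 33.8% and 40.1%. At 10 mg/L, where the rule holds the lowest library up, it was 43.7% beside 48.4%, and over replicates 1 and 2 alone 23.3% beside 30.8%. Counts of 0 were frequent: 24 members, 38.7%, had counts in all 9 other libraries, against 77.6% of clusters in range. In 11 members, 17.7%, at least 5 of the 9 were at 0, against 3.61%. All 3 libraries of a group were at 0 in 5 members for the controls, 7 for 2 mg/L and 4 for 5 mg/L. The matching shares of clusters in range were not computed. The 2 mg/L libraries also held fewer counts in total than every control and 5 mg/L library, so the groups are not compared on this. Members are lower in these libraries than clusters in range by the way they were chosen, and low counts vary more, so these shares are a description. The library that came closest to the 10 mg/L level varied from member to member. It was control replicate 1 and 5 mg/L replicates 2 and 3 in 10 members each, 16.1% of members beside 13.95%, 16.5% and 12.7% of clusters in range. The remaining 6 libraries came closest in 3 to 8 members each, and 1 member was at 0 in all 9.

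Few further features of the members could be read from the files. Their identifiers consist of 2 numbers, and 61 of 62 had the first number 27942, as did 99.2% of clusters in range. No member had a consecutive second number with another, the closest being 6 apart. The effective length implied by a deposited count and its FPKM (a count scaled by length and library depth) differs between libraries, and its median over libraries with at least 10 counts was taken. In 4 members the longest was over 1.5 times the shortest. This length had a median of 1645 bases, near the 1828 bases of all clusters in range, and ran from 11.6 to 19529 bases. It was under 300 bases in 11 members, 17.7%, beside 10.7% of clusters in range. Per length, mean levels at 10 mg/L ran from 2.35 to 2756 FPKM with a median of 27.7 FPKM. The highest FPKM belonged to level rank 26, whose implied effective length was the shortest, at 6.65 and 16.5 bases in 10 mg/L replicates 1 and 2. Cluster-27942.66078 had 201.7 FPKM at 10 mg/L and was ninth by this scale, and Cluster-27942.72059 had 5.38 FPKM, with an implied effective length of 4971 bases. Of the nonzero counts of members, 18.4% were whole numbers, against 30.1% for clusters in range. Whole counts in every library were had by 5 members, 8.06% beside 19.5% of clusters in range. Counts that are not whole arise where reads are divided among similar sequences, so levels of related clusters are uncertain.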

How the data were processed

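RNA-seq of 12 hepatopancreas libraries was used, grouped by title, 3 per group. The deposited file of a library holds unnormalized estimated counts, 1 per gene cluster. FPKM was deposited beside it. Which assembler, aligner, counting tool and build were used is not given in the sources used here, and neither is any filter. CPM was computed from each library's summed counts. The members, lists and rule were chosen with earlier results of these data known.

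Counts were rounded and filtered with filterByExpr (minimum count 10, total 15). They were scaled by TMM and fitted with edgeR 4.0.16 (quasi-likelihood, 1 coefficient per group, 12 libraries), with Benjamini-Hochberg adjustment over 57151 clusters. The common biological coefficient of variation was 1.12. DESeq2 1.42.0, limma 3.58.1 (voom), other scalings, no filter, a replicate block and each library left out were alternatives. The rule was checked on planted clusters with known answers. The fit was checked on simulated counts whose spread was set far below that of these data. Whether the fit finds changes at the spread of these data was therefore not tested. Counting intervals are exact Poisson at 95%. The effective length implied by count and FPKM was the median over libraries with at least 10 counts. The identifiers printed are the members of highest mean CPM at 10 mg/L and of largest gap, and the first 5 of each order are described, with extremes. Counting intervals and values from 10 mg/L replicates 1 and 2 alone were added with the values in view. Versions were Python 3.11.15, scipy 1.17.1, pandas 2.3.3, numpy 2.4.6 and R 4.3.3.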

Additional observations from a re-analysis of the deposited data

How the results depend on the processing

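The rule gave 62 members as reported and 54 with FPKM, 50 with a pseudocount of 5, 90 with TMM-scaled CPM, 62 with clusters of separate controls kept, 30 with a lowest mean of 10 CPM and 39 with a log2 difference of at least 2. The stricter bounds admit fewer clusters by construction. With each library left out it gave 66 to 1099. The number 1099 came from leaving out 10 mg/L replicate 3. DESeq2 called 3 members for 5 against 2 mg/L, 4 for 2 mg/L and 2 for 5 mg/L against the controls. The shares over all clusters were 2.01%, 2.27% and 1.76%. For 10 mg/L against the controls, 2 and 5 mg/L, DESeq2 called 22, 24 and 16 members, beside 5.67%, 5.13% and 3.27% of all clusters. By edgeR 0 members were called in each, and the cause of the difference was not tested. With libraries left out, edgeR calls ran from 0 to 5, 0 to 4 and 0 to 5 in these last 3 comparisons, above 0 only without 10 mg/L replicate 3 (beside 0.357%, 0.23% and 0.288% of all clusters), and were 0 in the first 3. The median log2 fold change at 5 mg/L against the controls ran from -0.042 to 0.42, the latter without control replicate 3.

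With the replicate number as a block, 0 members were called in all 6 comparisons. The numbers did not pair the samples: over 18 pairs of libraries with the same number, deviations from the group means had r from -0.067 to 0.050, and the best match of a library had its own number in 4 of 12 cases. At this depth, counting intervals of the lowest 10 mg/L and the highest other library overlapped in 44 of 62 members. The matching share of clusters in range was not computed.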

Other observations

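High levels in 10 mg/L replicates 1 and 2 beside near silence elsewhere were not limited to members. In the mean range, 46 clusters had at least 10 CPM in both replicates and under 2 CPM in the other 10 libraries. Of these, 8 were members, 14 had 0 counts in 10 mg/L replicate 3, and the highest mean of replicates 1 and 2 was 852.7 CPM. Outside the mean range, 214 clusters met the remaining conditions of the rule, 1 of them above the range and the others below it. These groups of clusters were defined after their values were seen.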
